A study of Mus musculus with 32 samples.

Results

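The genes described here handle carotenoids, the aldehyde that carotenoid cleavage yields, and retinoic acid. They are the 10 genes *Bco1*, *Bco2*, *Scarb1*, *Aldh1a1*, *Aldh1a2*, *Aldh1a3*, *Aldh1a7*, *Crabp1*, *Rarb*, and *Cyp26b1*, among 34453 genes in the table of counts. All 10 were found by their symbols. The group was chosen by the level of *Bco1*, which had been seen to be higher with Nrf2, so that the values of *Bco1* in Nrf2 and control eyes are a description without a test. RNA came from the RPE of both eyes of 16 mice labelled *rd1*, 7 at P20 and 9 at P40. The Nrf2 eye of a mouse was injected with AAV-Best1-Nrf2 plus AAV-Best1-GFP and its control eye with AAV-Best1-GFP alone, which gave 32 libraries. By the labels, all groups shared the *rd1* allele of *Pde6b*, in which rods die early, and by the methods the GFP vector. The transgene was human *NFE2L2* behind the human Best1 promoter, which is active in the RPE, and in the methods the Nrf2 and GFP vectors had different capsids. By the doses in the methods, Nrf2 eyes received more vector in total than control eyes. Differences between the eyes of a mouse thus cannot tell Nrf2 apart from the dose of vector. The methods name fewer *rd1* pairs than the labels at both ages and also name CD1 pairs at P40. CD1 is the wild type of the paper, so that any CD1 mouse among the 9 at P40 would lack the *rd1* allele. Which mouse at P20 is beyond the number in the methods is not given in the sources used here. For the 9 mice at P40, the labels are thus the source of the strain, and all values at P40 and between ages depend on them.

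The total count per library was 16548332 to 50542797 (median 34471850), and 3 counts, taken as the floor, were worth 0.0578 to 0.170 CPM, the count scaled to the size of its library. This floor covers counting error only, since amplified RNA was sequenced. The transgene was at 3129 to 10483 CPM in the Nrf2 eyes at P40 and at 0 to 92.8 CPM in their control eyes. At P20, it was at 1096 to 9616 CPM in Nrf2 eyes (median 5511) and at 0.948 to 1110 CPM in control eyes (median 47.5), so that 2 libraries stood apart. The control eye of P20 mouse 3 was at 1110 CPM and the Nrf2 eye of P20 mouse 4 at 1096 CPM, while the other Nrf2 eyes at P20 were at 4882 CPM or more. These 2 libraries, from different mice, were closer to each other than any other pair among the 496 pairs of libraries. Over 12935 genes, the squared difference of these libraries was 8.64-fold the sampling noise, and that of the next closest pair 58.6-fold. For this reason, part of the results at P20 are also given without mice 3 and 4. According to the labels, sequencing was done in separate runs, but the run of each library is not given, and the fits left it out. Sample names begin with M for every library at P20 and with A for every library at P40. Whether this letter stands for a run or another step of handling is not given. Differences between the ages thus cannot tell age apart from whatever this letter stands for.

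RPE markers were high in all groups, with a sum over 6 genes of 2721 to 10498 CPM in control eyes and 6507 to 18804 CPM in Nrf2 eyes at P20. At P40, the sum was 6561 to 47016 CPM in control eyes and 8102 to 58757 CPM in Nrf2 eyes. Of these 6 genes (*Rpe65*, *Best1*, *Rlbp1*, *Ttr*, *Lrat*, and *Mitf*), *Rpe65* was lower past the threshold with Nrf2 at both ages, and *Lrat* and *Rlbp1* (−1.18 on the log2 scale, adjusted p = 0.00886 by edgeR), which encodes a carrier of retinaldehyde, at P40. In P40 control eyes, *Rpe65* was at most 3665 CPM and *Lrat* at most 1391 CPM, so that the highest sum of that group rests largely on other genes of the 6. The sum alone does not measure the amount of RPE. Transcripts of photoreceptors were also present. The summed level of 5 cone markers at P40 was 240 to 1858 CPM in control eyes and 20.8 to 214 CPM in Nrf2 eyes, which did not overlap. Of the 5 cone markers, *Arr3*, *Opn1sw*, *Opn1mw*, *Gnat2*, and *Pde6h* were all lower past the threshold at P40, and *Opn1sw* and *Gnat2* also at P20. None of the 5 was at 0 in any library. According to the methods, the retina was removed before RNA was taken from the eyecup. In bulk RNA, the amount of retina carried over, the number of cells of a type, and the RNA per cell cannot be told apart.

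Animals cannot make carotenoids and cleave those from the diet. BCO1 cuts β-carotene at its centre into retinaldehyde, BCO2 cuts carotenoids away from the centre at the mitochondrion, and the scavenger receptor SR-B1, encoded by *Scarb1*, brings carotenoids and lipoprotein lipids into cells, the RPE included. Retinaldehyde is shared between routes: in the RPE it serves the visual cycle, in which RPE65, a relative of BCO1 and BCO2, isomerizes retinyl esters. Aldehyde dehydrogenases of the ALDH1A family can instead oxidize it to retinoic acid, which CRABP1 binds in the cytosol, RAR receptors read in the nucleus, and CYP26 enzymes break down. NRF2 is a transcription factor that activates genes of antioxidant and detoxifying enzymes through the antioxidant response element.

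*Bco1* (ENSMUSG00000031845; GRCm38 chromosome 8, 117095854 to 117133720, plus strand) was low in control eyes and many times higher in Nrf2 eyes. In control eyes it was at 0, 1.45, and 4.71 CPM at P20 (lowest, median, and highest of 7) and at 0.638, 0.924, and 1.75 CPM at P40 (of 9). In Nrf2 eyes it was at 4.34, 17.3, and 35.6 CPM at P20 and at 9.98, 20.4, and 28.4 CPM at P40. The groups did not overlap at P40. At P20 they overlapped only through the 2 libraries with a transgene near 1100 CPM, the control eye of mouse 3 (*Bco1* at 4.71 CPM) and the Nrf2 eye of mouse 4 (4.34 CPM). Without mice 3 and 4, *Bco1* was at 0.315 to 1.87 CPM in control eyes and 15.3 to 35.6 CPM in Nrf2 eyes at P20. The control eye of P20 mouse 4 had no count of *Bco1*.

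**Figure D1:**
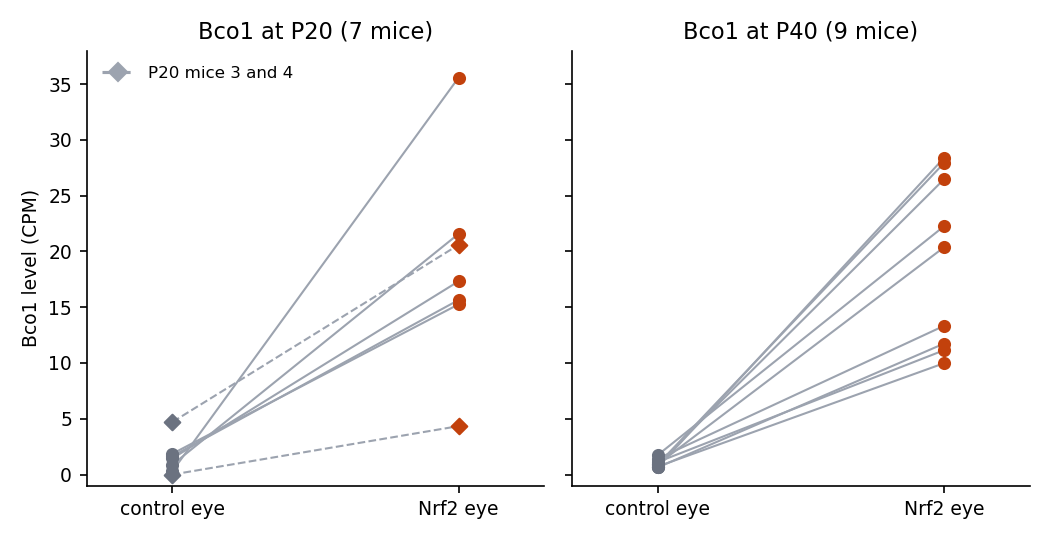
Level of Bco1 (CPM) in the control eye and the Nrf2 eye of each mouse at P20 (7 mice) and P40 (9 mice), with a line joining the eyes of a mouse and dashed lines for P20 mice 3 and 4. Every line goes up, from at most 4.71 CPM in control eyes to at least 4.34 CPM in Nrf2 eyes, and the eyes do not overlap at P40.

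Within mice, 7 of 7 pairs at P20 and 9 of 9 at P40 had the higher level in the Nrf2 eye. On the ratio of CPM, *Bco1* was 4.37-fold to 113-fold higher at P20 (median 10.7-fold in the 6 mice with counts in both eyes), and in mouse 4, against the floor of its control library, at least 46.6-fold higher. At P40, it was 9.39-fold to 43.7-fold higher (median 18.4-fold). The lowest ratio at P20 was that of mouse 3, whose control eye carried the transgene at 1110 CPM. The other control eyes at P20 carried it at 0.948 to 155 CPM, and a link with the ratio was not tested. The log2 fold change fitted by edgeR was 4.07 (SE 0.70, 95% interval 2.47 to 5.67) at P20 and 4.16 (SE 0.29, 3.54 to 4.79) at P40. Leaving out each mouse in turn gave 3.67 to 4.49 and 4.01 to 4.29. Because *Bco1* was chosen for its rise with Nrf2, these intervals and ranges are descriptions and no test of that rise. The effect was 0.08 larger at P40 than at P20 on the log2 scale, with an interval of −1.43 to 1.60.

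**Figure D2:**
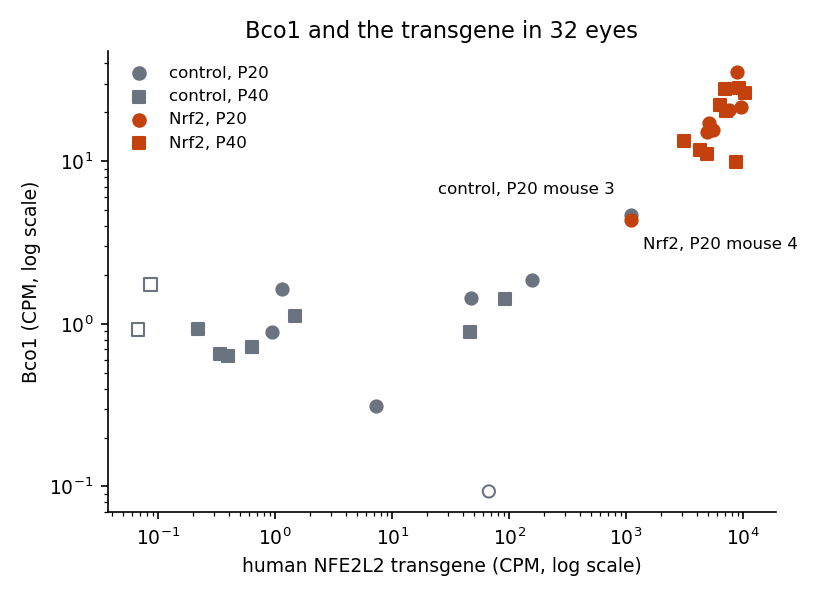
Level of Bco1 against that of the human NFE2L2 transgene in 32 eyes, both in CPM on log scales, with gray for control and orange for Nrf2 eyes, circles for P20 and squares for P40. Open symbols mark a value at 3 counts or fewer, drawn at the value of 3 counts on that axis. The 2 libraries with a transgene of 1096 and 1110 CPM lie between the groups in Bco1, at 4.34 and 4.71 CPM.

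Between the ages, a comparison that played no part in choosing the genes, *Bco1* did not pass the test. In control eyes the log2 fold change from P20 to P40 was −0.55 (95% interval −1.85 to 0.75, adjusted p = 0.544 by edgeR's quasi-likelihood test), and it was 0.026 without the control eye of P20 mouse 3. In Nrf2 eyes it was 0.06 (−0.64 to 0.76, adjusted p = 0.929). In Nrf2 eyes, *Bco1* was 18.6 ± 9.37 CPM (SD, n = 7) at P20 and 19.1 ± 7.61 CPM (n = 9) at P40. Without P20 mice 3 and 4, it was 21.1 ± 8.49 CPM (n = 5) at P20, with an SD closer to that at P40. Whether the spread differed between the ages was not tested.

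Among the 5 genes whose levels followed *Bco1* most closely over the 32 eyes were *Adm*, *Ptgr1*, *Gstm3*, and *Cbr3*, with Pearson r of 0.948, 0.937, 0.933, and 0.931 on log2 CPM, out of 17958 genes. These are descriptions without a p, since the eyes share a treatment. The medians of *Gstm3* in control eyes, 0.0283 CPM at P20 and 0.0245 CPM at P40, were below the floor. Its r thus rests in part on values at the floor. *Adm* encodes the peptide adrenomedullin, *Ptgr1* and *Cbr3* encode reductases of lipid mediators and carbonyls, and *Gstm3* a glutathione S-transferase. The pattern of the library between the groups was shared: the highest control eye at P20 was at 9.22 CPM for *Adm*, with a median of 1.27, and the lowest Nrf2 eye at 7.92, with a median of 40.7. *Ptgr1* had medians of 84.5 and 142 CPM in control eyes and 1160 and 1685 CPM in Nrf2 eyes at P20 and P40. Among the other 9 genes of the group, r with *Bco1* was −0.59 for *Bco2* and between −0.28 and 0.18 for the rest.

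The promoter of *Bco1* is shown because *Bco1* was higher in the Nrf2 eye of every mouse, those of *Aldh1a2* and *Rarb* because they hold a match to a motif searched for, and that of *Cyp26a1*, a retinoic acid hydroxylase outside the group, for comparison with *Rarb*. The 250 bases before the annotated start were read from RefSeq (GRCm38.p6), which had an entry for 8 of the 10 genes, all but *Scarb1* and *Aldh1a3*. The motifs, searched on both strands, were the core of the antioxidant response element, TGACNNNGC, and a direct repeat of the site read by retinoic acid receptors, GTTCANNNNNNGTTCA. The first was in 10.2% of 32851 promoters of this length, and the second in 0.067% (22 promoters). The windows were chr8:117095615-117095864 (plus strand) for *Bco1*, chr9:71215539-71215788 (plus) for *Aldh1a2*, chr14:16575477-16575726 (minus) for *Rarb*, and chr19:37697558-37697807 (plus) for *Cyp26a1*. They are written from 5′ to 3′ on the strand of the gene, with matches in capitals.
Bco1: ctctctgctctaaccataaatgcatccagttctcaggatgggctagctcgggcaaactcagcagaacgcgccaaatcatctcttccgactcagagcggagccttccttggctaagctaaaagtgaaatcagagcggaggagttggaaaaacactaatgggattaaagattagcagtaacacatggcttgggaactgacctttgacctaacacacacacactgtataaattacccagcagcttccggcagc
Aldh1a2: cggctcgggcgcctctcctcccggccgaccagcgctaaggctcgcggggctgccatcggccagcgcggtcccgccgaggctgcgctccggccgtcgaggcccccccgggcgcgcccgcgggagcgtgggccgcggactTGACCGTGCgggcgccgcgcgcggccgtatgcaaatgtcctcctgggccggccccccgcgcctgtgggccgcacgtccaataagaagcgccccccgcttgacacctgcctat
Rarb: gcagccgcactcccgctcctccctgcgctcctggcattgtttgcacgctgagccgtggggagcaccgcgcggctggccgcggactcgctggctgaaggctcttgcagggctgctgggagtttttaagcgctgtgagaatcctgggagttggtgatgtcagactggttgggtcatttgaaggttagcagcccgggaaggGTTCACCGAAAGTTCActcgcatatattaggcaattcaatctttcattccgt
Cyp26a1: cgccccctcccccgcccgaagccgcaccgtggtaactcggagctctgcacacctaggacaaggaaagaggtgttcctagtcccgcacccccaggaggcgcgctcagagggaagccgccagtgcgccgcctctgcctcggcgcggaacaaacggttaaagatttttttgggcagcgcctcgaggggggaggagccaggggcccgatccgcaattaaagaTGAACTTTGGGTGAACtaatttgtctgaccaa

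The *Bco1* window held neither motif, which says only that these letters are not within it. Among the 8 genes, *Aldh1a2* held TGACCGTGC, 112 bases before its start. *Rarb* held the direct repeat as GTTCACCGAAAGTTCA, 52 bases before its start, and *Cyp26a1* held it on the other strand as GTTCACCCAAAGTTCA, 32 bases before its start. A match is a description of the letters, and binding was not measured. None of these 3 genes passed the test for Nrf2 at either age in edgeR.

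Per length, the 10 genes spanned a wide range in control eyes. With CPM divided by the summed length of exons in kb, the medians in P20 control eyes ran from 16.3 CPM per kb for *Aldh1a3*, 14.4 for *Scarb1*, and 7.94 for *Aldh1a1* through 4.03 for *Rarb*, 3.28 for *Aldh1a7*, 2.46 for *Bco2*, and 1.99 for *Aldh1a2* to 0.571 for *Bco1*, 0.498 for *Crabp1*, and 0.399 for *Cyp26b1*. Every neighbour in this order overlapped the next between eyes. On the same scale, *Bco1* was the third lowest in control eyes at P20, with a median below that of *Bco2*, and the second highest in Nrf2 eyes at P20, with a median of 6.81 CPM per kb against 1.79 for *Bco2*. At P40, the medians for *Bco1* and *Bco2* were 0.363 and 2.99 CPM per kb in control eyes and 8.01 and 1.95 CPM per kb in Nrf2 eyes. The ranges of the 2 cleavage enzymes did not overlap in P40 Nrf2 eyes, where the lowest level of *Bco1* was 3.92 and the highest of *Bco2* was 3.55 CPM per kb.

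Beside *Bco1*, none of the other 9 genes passed an adjusted p of 0.05 for Nrf2 at P20 or P40 in edgeR, or for the change of the Nrf2 effect with age. At P20, 8 of the 9 were abundant enough to be tested, and 3.41% of all 16303 genes tested were called (2.93% higher, 0.485% lower). This share depended on single mice, since with 1 mouse left out it ran from 0.68% (111 genes, without mouse 7) to 12.2% (1999 genes, without mouse 4), and it moved by more than 1.5-fold without any mouse but mouse 2. Without mice 3 and 4 it was 4.58% (759 genes). At P40, again 8 of the 9 were tested, and 4.57% of 16686 genes were called (3.33% higher, 1.23% lower), or 3.12% to 5.99% with 1 mouse left out. For the difference between the ages, all 9 were tested and 1 of 17959 genes, or 0.00557%, was called. At an unadjusted p under 0.05 the counts were 0 at P20, 1 at P40, and 0 for the difference. DESeq2 called 1 at P20 and 1 at P40, and limma voom called 1 at P20 and 0 at P40, named below with their values. These tests also called more of all genes, 12% (DESeq2) and 16% (limma voom) at P20 and 8.27% and 7.95% at P40, so that 1 of 8 genes is near the share of all genes.

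**Figure D3:**
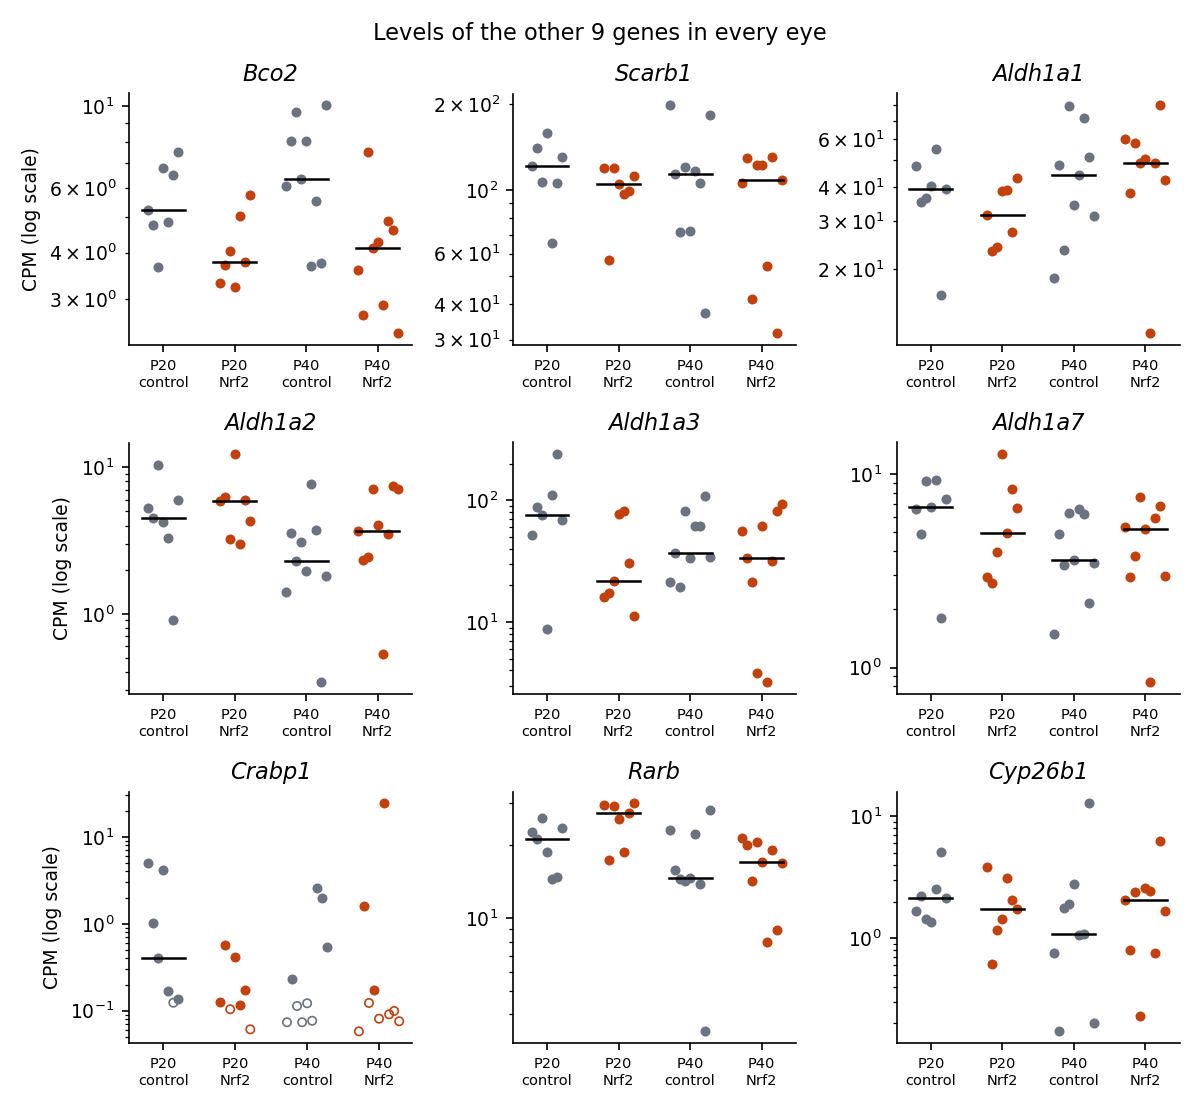
Level (CPM, log scale) of the other 9 genes in each of the 32 eyes by group, with a bar at the median where it is above the floor and open symbols, drawn at the value of 3 counts, for libraries at 3 counts or fewer. The control and Nrf2 eyes overlap at both ages for all 9 genes, and single eyes stand far from their group, such as Crabp1 at 24.6 CPM in 1 Nrf2 eye at P40.

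Of the genes of uptake and cleavage, *Bco2* (chromosome 9, 50533087 to 50555181) was lower in the Nrf2 eye in 5 of 7 mice at P20 and in 8 of 9 at P40, opposite in sign to *Bco1*. It was at 3.65, 5.22, and 7.51 CPM in control eyes and 3.24, 3.78, and 5.75 CPM in Nrf2 eyes at P20. At P40, it was at 3.67, 6.33, and 10.1 CPM in control eyes and 2.42, 4.12, and 7.52 CPM in Nrf2 eyes. The groups overlapped at both ages. The log2 fold change was −0.46 (95% interval −0.96 to 0.05, adjusted p = 0.319) at P20 and −0.76 (−1.35 to −0.17, unadjusted p = 0.0163, adjusted p = 0.198) at P40 by edgeR's quasi-likelihood test. DESeq2 called the difference at P40 (−0.77, adjusted p = 0.0482), and it is the 1 call of DESeq2 among these genes at that age. *Scarb1*, the uptake receptor (chromosome 5, 125277087 to 125341094), had medians of 122 and 105 CPM in control and Nrf2 eyes at P20 and of 114 and 108 CPM at P40, with log2 fold changes of −0.23 (−0.66 to 0.19) and −0.32 (−0.76 to 0.12). Its eyes ranged over 31.5 to 199 CPM, and neither direction was shared by more than 5 mice at either age.

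The 3 principal retinaldehyde dehydrogenases are encoded by *Aldh1a1*, *Aldh1a2*, and *Aldh1a3*, and *Aldh1a7* is a rodent relative of *Aldh1a1*. *Aldh1a1* and *Aldh1a7* lie beside each other on chromosome 19 (20492715 to 20643465 and 20692953 to 20727562), *Aldh1a2* on chromosome 9 (71215789 to 71296243), and *Aldh1a3* on chromosome 7 (66390890 to 66427517). *Aldh1a3* was lower in the Nrf2 eye in 6 of 7 mice at P20. It was at 8.85, 75.2, and 241 CPM in control eyes and at 11.2, 21.8, and 81.7 CPM in Nrf2 eyes. The exception was mouse 4, with 8.85 CPM in its control eye, the lowest of that group, and 77.5 CPM in its Nrf2 eye, 1 of the 2 libraries that stood apart. The log2 fold change was −1.54 (95% interval −3.11 to 0.04, adjusted p = 0.287 by edgeR). Without mouse 4, where 12.2% of all genes were called, it was −2.03 with an adjusted p of 0.00784, without mice 3 and 4 it was −2.07 with an adjusted p of 0.0298, and over all 7 mice it passed in DESeq2 (−1.51, adjusted p = 0.0486) and in limma voom (−1.54, adjusted p = 0.0375). The call at P20 thus turned on 1 mouse and on the test. The sum of 6 fibroblast markers at P20 was 107 to 665 CPM in control eyes and 287 to 929 CPM in Nrf2 eyes, which overlapped. The 6 inner retina markers summed to 312 to 654 CPM in control eyes and 128 to 307 CPM in Nrf2 eyes, without overlap. The 5 cone markers summed to 29.3 to 792 CPM in control eyes and 11.6 to 56.8 CPM in Nrf2 eyes, with overlap. The part of these cells in the difference of *Aldh1a3* at P20 was not tested. At P40, *Aldh1a3* was lower in 5 of 9 Nrf2 eyes, at 19.4, 36.7, and 109 CPM in control eyes and 3.20, 33.5, and 93.9 CPM in Nrf2 eyes. The difference at P40 was −0.52 (−1.92 to 0.88, adjusted p = 0.858), and Nrf2 mice 4 and 6 were lowest, at 3.78 and 3.20 CPM.

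*Aldh1a1*, *Aldh1a2*, and *Aldh1a7* had intervals that covered 0 at both ages. *Aldh1a1* was at medians of 39.2 and 31.6 CPM in control and Nrf2 eyes at P20 and 44.3 and 49.1 CPM at P40, with log2 fold changes of −0.23 (−0.65 to 0.19) and 0.09 (−0.61 to 0.80). *Aldh1a2* was at medians of 4.50 and 5.88 CPM at P20 and 2.30 and 3.66 CPM at P40, with log2 fold changes of 0.31 (−0.84 to 1.46) and 0.62 (−0.78 to 2.03). *Aldh1a7* was at medians of 6.77 and 4.97 CPM at P20 and 3.61 and 5.20 CPM at P40, with log2 fold changes of −0.24 (−1.28 to 0.80) and 0.05 (−0.89 to 0.99). Their adjusted p values were between 0.537 and 0.987 by edgeR. Values for *Aldh1a7* and *Aldh1a1* are uncertain with respect to each other: 13.8% of the stretches of 31 bases in *Aldh1a7* exons also occur in *Aldh1a1* (281 stretches), and 5.7% the other way. *Aldh1a2* and *Aldh1a3* shared none with *Aldh1a1* or *Aldh1a7*.

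The proteins that bind, read, and break down retinoic acid are encoded here by *Crabp1* (chromosome 9, 54764748 to 54773110), *Rarb* (chromosome 14, 16430839 to 16819156), and *Cyp26b1* (chromosome 6, 84571414 to 84593908), all in GRCm38. *Rarb*, whose own promoter carries the direct repeat shown above, had the higher level in the Nrf2 eye of 6 of 7 mice at P20 and 5 of 9 at P40. Its levels in control and Nrf2 eyes were 14.6, 21.2, and 26 CPM and 17.3, 27.0, and 29.9 CPM at P20. The log2 fold change was 0.30 (−0.01 to 0.61, adjusted p = 0.29 by edgeR) at P20 and 0.02 (−0.52 to 0.56, adjusted p = 0.989) at P40. *Cyp26b1* was at medians of 2.14 and 1.73 CPM at P20 and 1.09 and 2.04 CPM at P40, with changes of −0.31 (−1.22 to 0.60) and 0.37 (−0.88 to 1.63). In P40 mouse 8 it was highest in both eyes, at 12.9 CPM in the control eye and 6.25 CPM in the Nrf2 eye, against at most 2.76 and 2.59 CPM in the other eyes of each group.

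*Crabp1* was near the floor in most eyes and did not pass the filter on low counts for Nrf2 at either age. At P20, it was at 0, 0.400, and 5.07 CPM in control eyes and at 0, 0.125, and 0.567 CPM in Nrf2 eyes, and it was lower in the Nrf2 eye in 6 of 7 mice. At P40, 5 of 9 control eyes and 6 of 9 Nrf2 eyes were at 3 counts or fewer. A single Nrf2 eye, that of P40 mouse 6, held 793 counts, or 24.6 CPM, while the next highest of that group was at 1.61 CPM. In the same library the summed level of 6 inner retina markers was 573 CPM, against a range of 194 to 1193 CPM in its group. The same library had the highest sums of its group for markers of cones (214 CPM, next 45.3), rods (38.3 CPM), and fibroblasts (662 CPM). The part of RNA from these cells in the level of *Crabp1* was not tested.

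**Figure D4:**
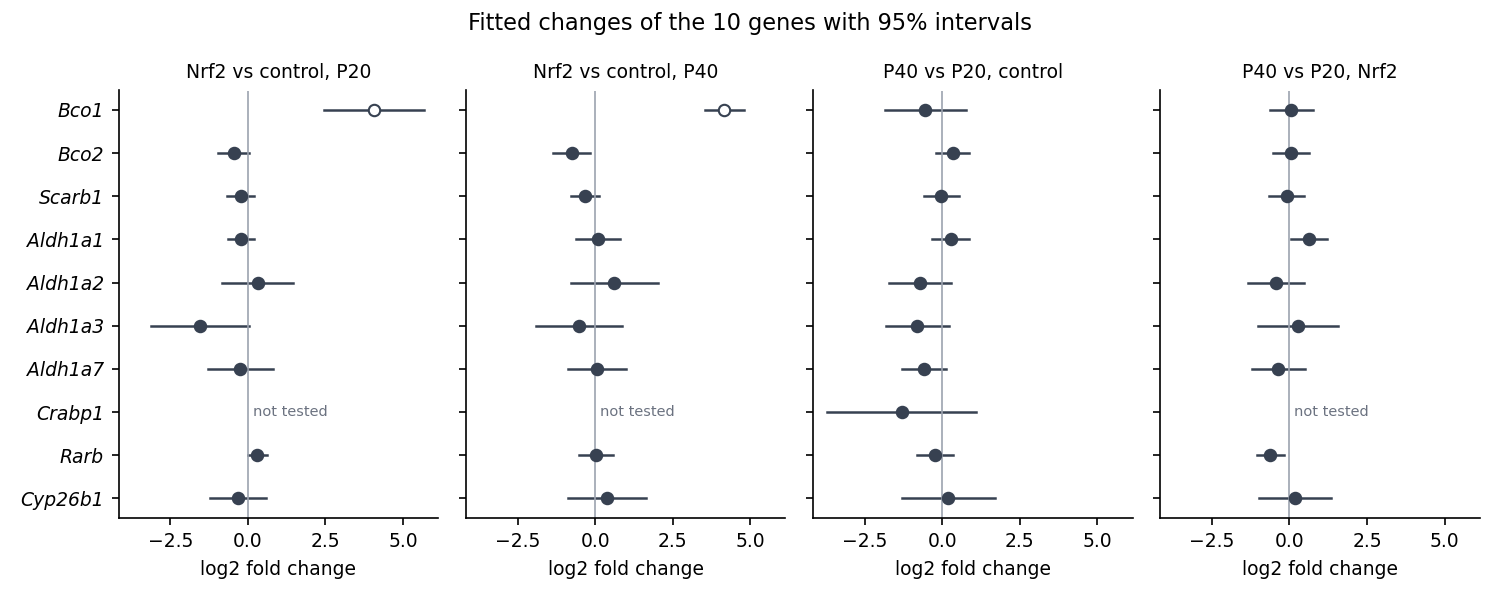
Fitted log2 fold change of the 10 genes with its 95% interval for Nrf2 against control eyes at P20 and P40 and for P40 against P20 in control and in Nrf2 eyes, with an open symbol for Bco1 where it has no test. Crabp1, too low for a fit of either Nrf2 effect or of age in Nrf2 eyes, is marked as not tested there. Bco1 lies at 4.07 and 4.16 for Nrf2, and the intervals of the other genes for Nrf2 include 0 except that of Bco2 at P40.

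With age, none of the 10 genes passed the threshold in control eyes, where 14.8% of 16832 genes were called (8.34% higher, 6.42% lower). By edgeR none had an unadjusted p under 0.05, and DESeq2 and limma voom called none either. This share of all genes depended on single eyes. With 1 control eye left out it ran from 2.77% (473 genes, without P20 mouse 5) to 25.6% (4273 genes, without P40 mouse 1), and it moved by more than 1.5-fold without any of the 7 eyes at P20 or without those of P40 mice 1, 2, 3, and 5. Without P20 mice 3 and 4, 158 genes in all (0.916%) were called in control eyes. The log2 fold changes ran from −1.31 for *Crabp1* to 0.34 for *Bco2*, with a median of −0.39 against −4.6e-05 for all genes tested. In Nrf2 eyes, none of the 9 tested was called, where 0.502% of 16745 genes were called (0.167% higher, 0.334% lower), and 2 had an unadjusted p under 0.05. *Rarb* was −0.61 (95% interval −1.04 to −0.19, unadjusted p = 0.00747, adjusted p = 0.111 by edgeR), with 17.3, 27.0, and 29.9 CPM at P20 and 7.98, 17.1, and 21.3 CPM at P40. *Aldh1a1* was 0.64 (0.06 to 1.21, unadjusted p = 0.0332, adjusted p = 0.162), with 23.3, 31.6, and 43.2 CPM at P20 and 11.6, 49.1, and 79.9 CPM at P40. The groups overlapped for both genes. *Rarb* passed in DESeq2 (adjusted p = 0.0358) and in limma voom (adjusted p = 0.0248), and *Aldh1a1* passed in limma voom (adjusted p = 0.0313), where DESeq2 called 10.9% and limma voom 13.2% of all genes.

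The rest of the pathway was described by a list of 28 genes that carry, store, interconvert, or respond to carotenoids and retinoids. Of these, 24 could be tested for Nrf2 at P20, and 3 were called (12.5%, against 3.41% of all genes): *Gstp1* and *Rbp4* were higher and *Rpe65* was lower. At P40, 5 of 23 were called (21.7%, against 4.57% of all genes), the same 3 in the same directions together with *Lrat* and *Rdh10*, both lower. Over the genes of the list tested, the median change on the log2 scale was −0.31 (P20) and −0.13 (P40), and over all genes tested it was −0.04 and −0.03. The list was drawn up with results of these data known, and its counts are descriptions.

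**Figure D5:**
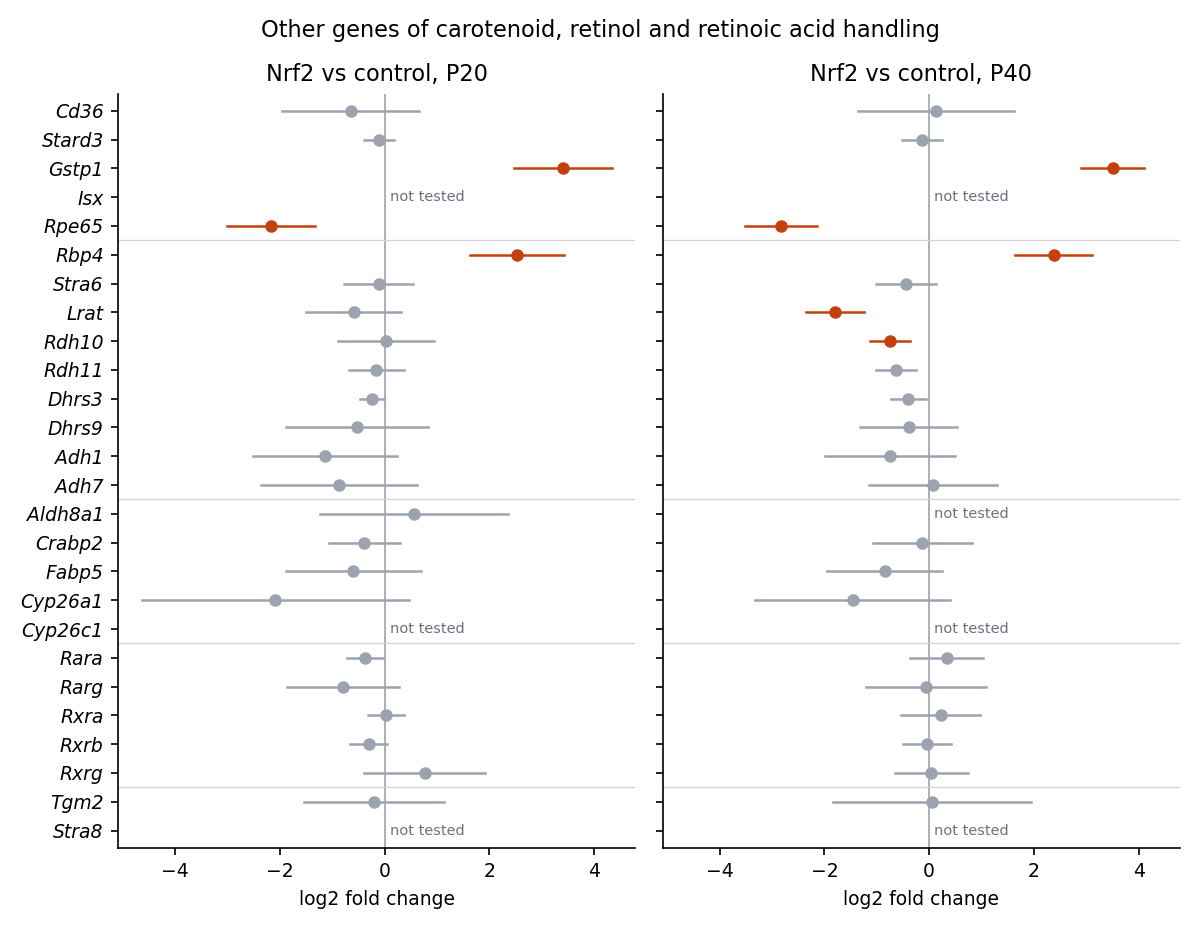
Fitted log2 fold change of 26 of the 28 other genes of carotenoid, retinol, and retinoic acid handling with its 95% interval for Nrf2 against control eyes at P20 and P40, with orange for genes past the threshold and gray for the rest. Genes too low for a fit are marked as not tested in place of a value. Gstp1 and Rbp4 lie to the right and Rpe65 to the left at both ages, and Lrat and Rdh10 to the left at P40.

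*Rbp4* encodes the protein that carries retinol in blood, and *Gstp1* a glutathione S-transferase whose human relative binds the macular carotenoid zeaxanthin. *Rbp4* was at 0.905 to 4.85 CPM in control eyes and 4.23 to 23.2 CPM in Nrf2 eyes at P20, and at 0.511 to 4.67 CPM and 8.42 to 18.1 CPM at P40, without overlap. It rose by 2.53 (95% interval 1.64 to 3.42, adjusted p = 0.0145 by edgeR) at P20 and by 2.37 (1.63 to 3.12, adjusted p = 0.00142) at P40 on the log2 scale. *Gstp1* was at 109 to 427 CPM in control eyes and 397 to 2997 CPM in Nrf2 eyes at P20, and at 131 to 366 CPM and 1036 to 3470 CPM at P40. It rose by 3.40 (adjusted p = 0.00921) at P20 and by 3.51 (adjusted p = 2.28e-05) at P40. *Gstp1* has a near-identical neighbour, *Gstp2*, so that its counts may include reads of the latter. For both genes, all 7 mice at P20 and all 9 at P40 had the higher level in the Nrf2 eye.

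*Rpe65*, the isomerase of the visual cycle and the third member of the carotenoid oxygenase family, fell in Nrf2 eyes, opposite to *Bco1*. It was at 669, 1092, and 2028 CPM in control eyes and 127, 229, and 1005 CPM in Nrf2 eyes at P20. At P40, it was at 782, 2228, and 3665 CPM in control eyes and 177, 256, and 737 CPM in Nrf2 eyes, without overlap. The log2 fold change was −2.17 (95% interval −3.01 to −1.33, adjusted p = 0.0198 by edgeR) at P20 and −2.82 (−3.51 to −2.14, adjusted p = 0.000281) at P40, with every pair in this direction. *Lrat*, which makes the retinyl esters that RPE65 uses, was at 147 to 1391 CPM in control eyes and 96.7 to 261 CPM in Nrf2 eyes at P40, lower in 9 of 9 mice (−1.80, adjusted p = 0.00122). At P20 its difference was −0.59 (adjusted p = 0.463), and the difference between the ages was −1.20 (unadjusted p = 0.0192, adjusted p = 1). *Rdh10*, which oxidizes retinol to retinaldehyde, was lower in 8 of 9 mice at P40 (−0.75, adjusted p = 0.0323). The sums of the cone and rod markers were also lower in Nrf2 eyes at P40, the latter at 50.8 to 435 CPM in control and 4.94 to 38.3 CPM in Nrf2 eyes, and their part in these differences was not tested.

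The calls for *Gstp1* at both ages and for *Rpe65*, *Rbp4*, and *Lrat* at P40 held without each mouse in turn. At P20, the adjusted p of *Rpe65* was above 0.05 in 5 of 7 such fits (0.0652 at most) and that of *Rbp4* in 4 of 7 (0.0583 at most), while that of *Rdh10* at P40 was above 0.05 in 7 of 9.

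With age, 4 of 23 genes of the list were called in control eyes (17.4%, against 14.8% of all genes). As stated above, the ages also differ in the first letter of the sample names. *Rara*, a retinoic acid receptor, fell by 1.40 on the log2 scale (95% interval −1.98 to −0.81, adjusted p = 0.0127 by edgeR), from 15.3 to 20.3 CPM at P20 to 3.17 to 14.5 CPM at P40 without overlap, and its call held without each eye in turn. *Crabp2*, a retinoic acid binding protein, fell by 1.00 (adjusted p = 0.0449), whereas *Cyp26a1* rose by 1.79 (adjusted p = 0.0378). Of the 16 fits that left out an eye, 12 lost the call of *Crabp2* and 10 that of *Cyp26a1*. Without P20 mice 3 and 4, *Rara* alone was called. In Nrf2 eyes, none of 23 was called by edgeR, although 2 were called by DESeq2 and 4 by limma voom, which called 10.9% and 13.2% of all genes, and for none of 24 did the Nrf2 effect change with age past the threshold.

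*Isx*, *Cyp26c1*, and *Stra8* were among the genes of the list too low to be tested in any comparison. Genes of the list such as the retinol receptor *Stra6*, the alcohol dehydrogenases *Adh1* and *Adh7*, the receptors *Rarg*, *Rxra*, *Rxrb*, and *Rxrg*, and the response gene *Tgm2*, did not pass the test for Nrf2 at either age over all mice. Without P20 mouse 4, where 12.2% of all genes were called, *Adh1*, *Rarg*, and *Fabp5* were also called at P20 by edgeR.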

How the data were processed

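RNA from the RPE of 32 eyes of 16 mice labelled *rd1* was processed, with groups and the pairing of eyes taken from the labels. According to the methods and the labels, the authors amplified the RNA, mapped reads to mm10 (STAR), counted them (featureCounts), and also estimated transcripts with Salmon 0.9.1. The authors deposited estimated counts per gene as whole numbers, without normalization, and which counter made them is not given in the sources used here. Of the 34453 rows, 34401 had a symbol and 4268 were at 0 in every library. Each eye was 1 sample, numbered by mouse in the labels.

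The fits used edgeR 4.0.16 in R 4.3.3 (filterByExpr, TMM, quasi-likelihood test). The mouse was a block for Nrf2 effects and for their change with age, with no block between ages, which were different mice. Benjamini-Hochberg adjustment ran over all genes tested, and an adjusted *P* value under 0.05 was called. Levels are CPM on TMM-adjusted library sizes, log2 CPM used a prior count of 2, and 3 counts were taken as the floor. A list was described by its counts and median beside those of all genes. Positions are from GENCODE (GRCm38) and promoters from RefSeq (GRCm38.p6). DESeq2 1.42.0, limma 3.58.1 (voom with quality weights), RLE normalization, other filters, robust dispersion, fits without the block, and leaving out samples were the alternatives. The tests were first run on simulated data. The 10 genes, the lists, and the rule for named genes (the 10 genes, the 5 most like *Bco1*, and the called genes of the list) were chosen with earlier results of these data known. Some genes that these rules name are not reported here.

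The pairing comes from the labels, in which both eyes of a mouse carry its number. As a check, the deviation of each eye from its group mean was correlated across genes. Eyes of the same mouse had a mean r of 0.0214 (P20) and 0.0991 (P40), eyes of different mice −0.000551 and −0.00650, with r over 0.1 in 3 pairs at P20 and in 3 at P40.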

Additional observations from a re-analysis of the deposited data

Results flagged for a closer look

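In 9 of 40 groups of eyes tested, 4 groups for each of the 10 genes, the highest or lowest eye stood apart from the others by Dixon's criterion. Normally distributed values meet it by chance in about 1 group in 20. It was applied to CPM without a log scale, and whether CPM is normal was not tested. The count of 9 is thus not read as an excess over that rate. The 40 groups share eyes and are not independent.

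Of these, 2 belong to the pair of P20 libraries with a transgene near 1100 CPM. *Bco1* was at 4.71 CPM in the control eye of P20 mouse 3, with the next eye at 1.87 CPM, and *Aldh1a2* was at 12.3 CPM in the Nrf2 eye of P20 mouse 4, with the next at 6.24 CPM. These 2 libraries resembled each other in all 10 genes, with ratios of the higher to the lower of 1.01 for *Rarb* to 1.37 for *Aldh1a7*.

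*Cyp26b1* stood apart in 3 groups, at 12.9 CPM in the control eye (next 2.76 CPM) and 6.25 CPM in the Nrf2 eye (next 2.59 CPM) of P40 mouse 8 and at 5.06 CPM in the control eye of P20 mouse 6 (next 2.52 CPM). The inner retina markers of the control eye of P40 mouse 8 summed to 1164 CPM, the highest of its group. Its sums for RPE (6561 CPM), cones (240 CPM, as in mouse 6), and Müller glia (2861 CPM) were the lowest. So were those for melanocytes (2501 CPM), endothelium (50.9 CPM), and macrophages (60.0 CPM). Its total count, 17721493, was also the lowest of its group.

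*Crabp1* was at 24.6 CPM in the Nrf2 eye of P40 mouse 6 (next 1.61 CPM). *Bco2* was at 7.52 CPM in the Nrf2 eye of P40 mouse 3 (next 4.88 CPM), the eye with the highest sums of its group for markers of the inner retina (1193 CPM), RPE (58757 CPM), melanocytes (14462 CPM), and Müller glia (8111 CPM). *Scarb1* was low, at 57.0 CPM, in the Nrf2 eye of P20 mouse 2 (next 96.8 CPM), and *Aldh1a2* was at 7.73 CPM in the control eye of P40 mouse 6 (next 3.74 CPM).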

How the results depend on the processing

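The log2 fold change of *Bco1* with Nrf2 ranged over 3.47 to 4.49 at P20 and 4.01 to 4.46 at P40 under every alternative in which it was fitted (at P20 a minimum of 10 counts in every library removed it). Calls differed between the tests. DESeq2 called 1 of the other 9 genes at P20 (*Aldh1a3*), 1 at P40 (*Bco2*), and 1 of 10 with age in Nrf2 eyes (*Rarb*), and limma voom called 1 at P20 (*Aldh1a3*) and 2 with age in Nrf2 eyes (*Aldh1a1* and *Rarb*). For the list of 28, limma voom called 5 at P20, 8 at P40, and 4 with age in Nrf2 eyes, where DESeq2 called 2. Over all genes, the count at P20 was 556 in edgeR, 1951 in DESeq2, 2605 in limma voom, and 348 without a filter, and with age in Nrf2 eyes it was 84, 1832, 2213, and 31. At P40 it was 762, 1380, 1327, and 717, and with age in control eyes 2483, 4383, 3747, and 914. The difference between the ages gave 1, 12, 1, and 1. Without P20 mice 3 and 4, 1 of the 9 genes and 4 of the list (*Gstp1*, *Rpe65*, *Rbp4*, and *Fabp5*) were called at P20. With age in control eyes, 1 of the list was called (*Rara*), as also without a filter, and 158 genes in all. With age in Nrf2 eyes, 1 of the 10 genes then had an unadjusted p under 0.05 by edgeR, against 2 over all Nrf2 eyes. With 1 mouse or eye left out at a time, the count was 0 to 1 for the 9 genes at P20, and for the list 1 to 6 at P20, 4 to 6 at P40, and 1 to 4 with age in control eyes. The count over all genes moved with them, over 111 to 1999, 521 to 997, and 473 to 4273, and over 21 to 190 with age in Nrf2 eyes. At P20 the call of *Aldh1a3* and the 6 calls of the list both came without mouse 4, where 1999 genes (12.2%) were called.

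Without the block for the mouse, the counts were 0 of the 9 genes and 3 of the list at P20 and 0 and 4 at P40 (*Rdh10* was lost), and 1093 and 716 genes in all.

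Values that changed sign were all uncalled. In limma voom these were *Aldh1a2* at P20 (−0.41), with age in control eyes *Scarb1* (0.033) and *Cyp26b1* (−1.07), and with age in Nrf2 eyes *Bco2* (−0.051), *Scarb1* (0.10), and *Cyp26b1* (−0.98). Without the block they were *Rarb* (−0.074) and *Cyp26b1* (−0.31) at P40 and *Cyp26b1* for the difference between the ages (−0.037). Without P20 mice 3 and 4 they were *Scarb1* (0.028) and *Cyp26b1* (−0.035) in control eyes and *Bco1* (−0.12), *Bco2* (−0.020), and *Cyp26b1* (−0.023) in Nrf2 eyes. Leaving out each sample in turn, the ranges that crossed 0 were −0.018 to 0.66 for *Aldh1a2* at P20 and, at P40, −0.10 to 0.32 for *Aldh1a1*, −0.16 to 0.35 for *Aldh1a7*, and −0.13 to 0.19 for *Rarb*. With age in control eyes they were −0.77 to 0.026 for *Bco1*, −0.17 to 0.077 for *Scarb1*, and −0.88 to 0.52 for *Cyp26b1*, and in Nrf2 eyes −0.15 to 0.29 for *Bco1*, −0.13 to 0.15 for *Bco2*, −0.18 to 0.029 for *Scarb1*, and −0.25 to 0.42 for *Cyp26b1*. For the difference between the ages they were −0.30 to 0.46 for *Bco1*, −0.071 to 0.68 for *Aldh1a2*, −0.24 to 0.049 for *Scarb1*, and −0.44 to 2.13 for *Crabp1*. The cause of these changes was not tested. Depth limits *Crabp1*, at or under 3 counts in 14 of 32 eyes.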
